A study of Homo sapiens with 6 samples.

Results

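MYC and its MAX network partners are a set of 10 genes chosen by symbol from the 28008 genes of the count table: MYC, MAX, MXD1, MXI1, MXD3, MXD4, MNT, MGA, MLX and MLXIP. All 10 passed the filter on low counts. The cells were DU-145-DR/tet-MUC1shRNA, made from DU-145, a human prostate cancer line, by selection for resistance to docetaxel (DTX). They carry a hairpin against MUC1, the gene for the oncogenic MUC1-C protein, that is switched on by doxycycline (DOX). The 3 DOX-negative cultures received 0.1% DMSO and the 3 DOX-positive cultures received 500 ng/ml DOX, and the titles give the resistant line for both groups. The treatment labels give DTX resistance for DOX-negative samples alone and the hairpin for DOX-positive samples alone; that all cultures share both comes from the titles and the study. A single hairpin was used and no control hairpin with DOX was analysed here, so MUC1 silencing and exposure to DOX cannot be told apart. The question put to these genes was whether silencing MUC1, which the study places upstream of MYC, shifted the transcripts of MYC and of the proteins that compete with it for MAX.

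MYC is a transcription factor that binds DNA only as a dimer with MAX, at the E-box CACGTG, where it recruits coactivators. The MXD proteins, MXI1 and MNT also pair with MAX, sit on the same sites and recruit the SIN3 corepressor with its histone deacetylases, and MGA takes MAX into a Polycomb complex, PRC1.6. MLX is another shared partner, which pairs with MLXIP (MondoA) to drive glucose-responsive genes and can also pair with MXD1, MXD4 and MNT. In many tissues MYC is high in dividing cells, and MXD1 is known to rise as cells stop dividing and differentiate.

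The promoters of the members were read for the E-box that the network binds. Sequences are from RefSeq (GRCh38.p14), 250 bases before to 50 after each gene start. Of the 10 members, 9 matched an entry of that table, and MYC did not. CACGTG, which reads the same on both strands, lay in the windows of 3 members, MXD4, MNT and MLX, and in those of 8.77% of the 27305 gene symbols with a window. These 3 stretches, 5′ to 3′ on the strand of the gene, are shown, with the E-box in capitals, because the network's own motif occurs there beside genes of the network. They lie at chr4:2262322-2262359, minus strand, chr17:2401228-2401273, minus strand, and chr17:42567030-42567075, plus strand.
MXD4: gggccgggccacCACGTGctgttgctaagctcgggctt
MNT: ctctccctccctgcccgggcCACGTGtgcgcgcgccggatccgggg
MLX: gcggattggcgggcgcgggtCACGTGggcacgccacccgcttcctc

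MXD1, the member with the largest change below, had no CACGTG in its window at chr2:69914859-69915158, plus strand. Its full window is printed because MXD1 carries the main result among the repressors, with the motif GGGCGG, a GC box bound by SP1-type factors, in capitals. On the strand of the gene the motif starts 123 and 53 bases before the gene start. GGGCGG, searched on both strands, is common, and lay in windows of all 9 members and of 48.3% of symbols. A match of letters is a description and not a binding site.
MXD1: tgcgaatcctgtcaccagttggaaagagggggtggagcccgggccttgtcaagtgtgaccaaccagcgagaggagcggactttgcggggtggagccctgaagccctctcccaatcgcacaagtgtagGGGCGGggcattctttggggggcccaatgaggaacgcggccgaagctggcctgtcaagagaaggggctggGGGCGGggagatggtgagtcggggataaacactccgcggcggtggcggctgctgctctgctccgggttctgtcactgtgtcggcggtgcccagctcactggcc

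Library totals ranged from 15092691 to 23243713 counts, and the floor of 3 counts lay between 0.131 and 0.202 CPM, which are counts divided by the TMM-scaled library size. MUC1 had 387, 484 and 396 counts in DOX-negative cells and 75, 74 and 66 counts in DOX-positive cells, with an edgeR log2 fold change of -2.52 (SE 0.146, adjusted p 4.47e-11). Of 4 blood, vessel and fibroblast markers, CD3E had 0 counts in every library and 1 passed the filter, with no call. All 4 epithelial markers examined were present and rose with DOX: EPCAM by 1.43, CDH1 by 0.92, KRT8 by 0.84 and KRT18 by 0.81 on the log2 scale, with a summed level of 587 to 651 CPM without DOX and 1077 to 1165 CPM with DOX. Their part in the results below was not tested. Across 14292 genes tested with the quasi-likelihood test of edgeR, 26.7% had an adjusted p under 0.05, 13.0% higher and 13.7% lower in DOX-positive cells, and 39.8% had groups apart in CPM. Of these calls 48.8% were higher. That share was 39.3% when libraries were scaled by total counts, and 6.56% and 9.48% in the deposited TPM (levels per length, brought to 1 total for all libraries) with a pseudocount of 1 or 0.1, where the median log2 change of all genes was -0.34 and -0.39.

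Silencing was accompanied by higher levels of 2 of the 10 members, the activator MYC and the repressor MXD1, and no member was called lower. MYC rose 1.56-fold and MXD1 rose 2.04-fold, while the shared partner MAX, the other 4 MXD and MNT repressors, MGA, MLX and MLXIP did not pass the threshold. DESeq2 gave the same counts, and at an unadjusted p under 0.05 edgeR counted 3 members higher (with MNT) and 0 lower. The 2 rises stand against 13.0% of all genes called higher. The groups did not overlap for 4 members, MYC, MXD1, MAX and MNT, against 39.8% of all genes. In the deposited TPM 0 members passed at either pseudocount. Relative to the shift of all genes in that table, the log2 change was 0.57 and 0.63 for MYC and 0.88 and 1.01 for MXD1 with pseudocounts of 1 and 0.1. The median log2 fold change was 0.078 over the 10 members and -0.0034 over all genes tested.

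MYC transcripts were measured at 125, 124 and 115 CPM in the DOX-negative libraries and at 198, 167 and 200.5 CPM in the DOX-positive libraries. Every DOX-positive library lay above every DOX-negative library, with DOX-positive replicate 2 the lowest of its group. The mean went from 121 ± 5.56 to 188 ± 18.7 CPM (SD, n = 3 each), which edgeR fitted as a log2 fold change of 0.64 (SE 0.0732, adjusted p 1.02e-06) with a 95% interval from 0.49 to 0.79. The change was larger in size than that of 90.5% of all genes tested. With any 1 library left out it ranged from 0.59 to 0.72. No annotated gene shares exon sequence with MYC in GENCODE 29. In bulk RNA, more transcript per cell and more cells that express the gene cannot be told apart. By immunoblot of lysates and chromatin, the study reported less MYC protein after MUC1 silencing in these cells. That direction is opposite to the transcript here, but it is a different measure, and protein was not measured in these libraries.

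The most pronounced change in the network was in MXD1, which replaces MYC on MAX and represses E-box genes through SIN3. MXD1 had 25.9, 22.4 and 22.3 CPM without DOX and 50.3, 48.9 and 44.8 CPM with DOX. The lowest DOX-positive library lay well above the highest DOX-negative library. The mean went from 23.5 ± 2.07 to 48.0 ± 2.88 CPM (SD, n = 3 each), or 1.03 in log2 units (SE 0.0909, edgeR adjusted p 2.31e-08) with a 95% interval from 0.84 to 1.22. In size it was larger than the change of 97.2% of all genes tested. Leaving out each library gave 0.99 to 1.10. In GENCODE 29, SNRNP27, which codes for a spliceosomal protein, shares exon sequence with MXD1 on the same strand. SNRNP27 had between 711 and 1142 counts, its groups did not overlap, and its log2 fold change was 0.22 (SE 0.0922, edgeR adjusted p 0.0817), with a negative sign in the deposited TPM (-0.16 at either pseudocount). Without DOX-negative replicate 1 it passed, at 0.33 (adjusted p 0.0234). Its part in the MXD1 result was not tested.

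**Figure D1:**
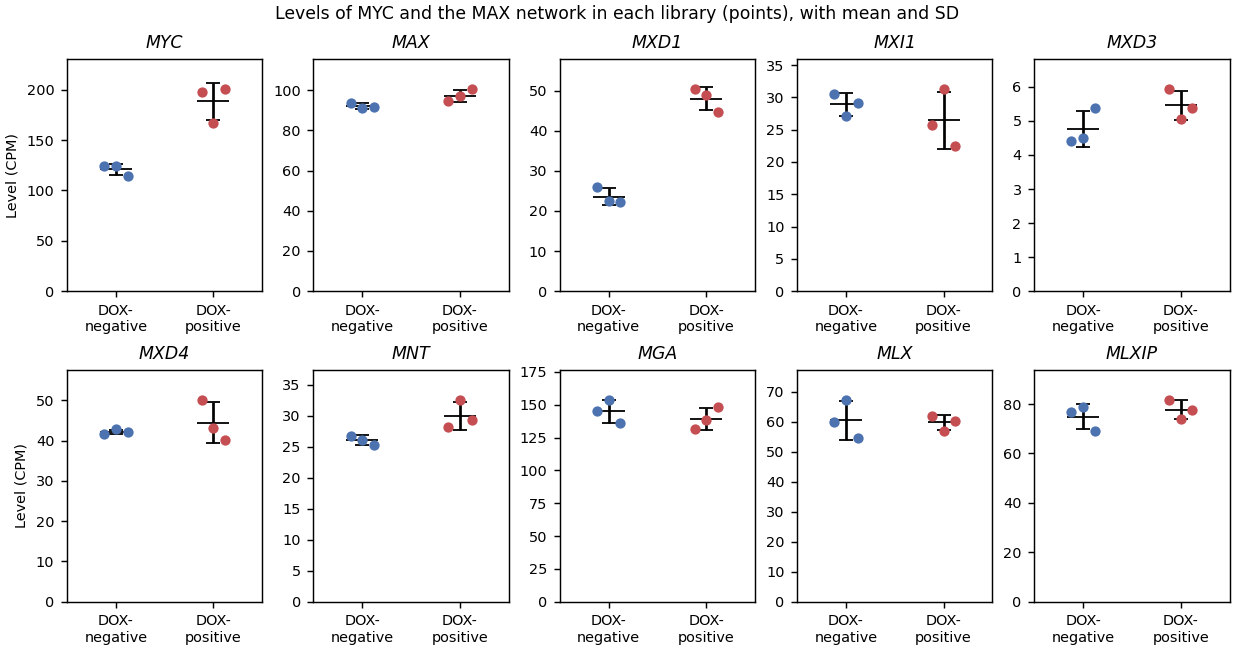
Level of each member in each library in CPM, from 0, for DOX-negative (blue) and DOX-positive (red) cells, with the mean as a horizontal bar and SD as error bars (n = 3 per group). MYC and MXD1 show the widest gaps between the groups, with every DOX-positive MYC library at 167 CPM or more and every DOX-negative library at 125 CPM or less, whereas the points of MXI1, MXD3, MXD4, MGA, MLX and MLXIP intermingle.

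MAX, the partner that MYC and its antagonists share, was measured at 93.8, 91.2 and 91.7 CPM without DOX and 94.4, 97.1 and 100.4 CPM with DOX. The groups were apart by a narrow margin, between 93.8 and 94.4 CPM. The log2 fold change was 0.076 (SE 0.0668, edgeR adjusted p 0.436) with a 95% interval from -0.062 to 0.21, and its sign turned in the deposited TPM (-0.31 and -0.32). The upper bound of that interval corresponds to a 1.16-fold rise, below the lower bound of 1.40-fold for MYC.

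None of the other MAX-bound repressors passed the threshold. MNT, the most widely expressed of them and the antagonist that persists in dividing cells, had 26.8, 26.1 and 25.3 CPM without DOX and 28.2, 32.5 and 29.2 CPM with DOX. Its groups did not overlap, but the log2 fold change of 0.20 (SE 0.0927) did not pass, with an edgeR adjusted p of 0.116 and a negative sign in the deposited TPM (-0.17 and -0.19). MXI1, also called MXD2, had 30.5, 27.1 and 29.2 CPM without DOX and 25.7, 31.2 and 22.5 CPM with DOX, so that the DOX-positive libraries lay on both sides of the others. Its log2 fold change was -0.12, with a 95% interval from -0.35 to 0.10 and an edgeR adjusted p of 0.434.

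MXD4 had 41.7, 42.8 and 42.1 CPM in DOX-negative cells and 50.1, 43.1 and 40.3 CPM in DOX-positive cells. It was the steadiest repressor without DOX, and the single library at 50.1 CPM set its mean with DOX. Without that library, DOX-positive replicate 1, its log2 fold change of 0.080 (edgeR adjusted p 0.548) turned to -0.017. MXD3, the family member linked to S phase, was the least abundant per length, with 80, 88 and 108 counts without DOX and 136, 97 and 80 counts with DOX. In CPM this was 4.40, 4.50 and 5.37 against 5.93, 5.07 and 5.38, with overlapping groups and a log2 fold change of 0.20 (95% interval from -0.17 to 0.57, edgeR adjusted p 0.444). That interval was the widest of the 10 members. MXD3 shares exon sequence with RAB24 on the same strand and PRELID1 on the opposite strand, which had log2 fold changes of -0.073 and 0.052 with adjusted p of 0.810 and 0.671 by edgeR.

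MGA, a large scaffold that joins MAX to PRC1.6, had 145, 154 and 136 CPM without DOX and 132, 138 and 148 CPM with DOX. The groups overlapped throughout, and the log2 fold change was -0.058 (95% interval from -0.20 to 0.084, edgeR adjusted p 0.584). The MLX group did not pass either. MLX, the partner of MLXIP, had 59.8, 67.2 and 54.4 CPM without DOX and 61.9, 57.0 and 60.3 CPM with DOX, and its log2 fold change of -0.017 (edgeR adjusted p 0.910) was at the 5.05th percentile of all genes by size. MLXIP, the glucose sensor of the pair, had 76.8, 78.8 and 69.1 CPM without DOX and 81.7, 74.0 and 77.5 CPM with DOX, a log2 fold change of 0.054 (95% interval from -0.10 to 0.21, edgeR adjusted p 0.641). The signs of MLX and MLXIP turned when single libraries were left out, so no direction is given for them. MLX shares exon sequence with PSMC3IP on the opposite strand, at 170 to 282 counts. MAX, MGA, MNT and MXI1 overlap antisense or intergenic RNAs that are not rows of the count table, and whether the counting used strand is not given in the sources used here.

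**Figure D2:**
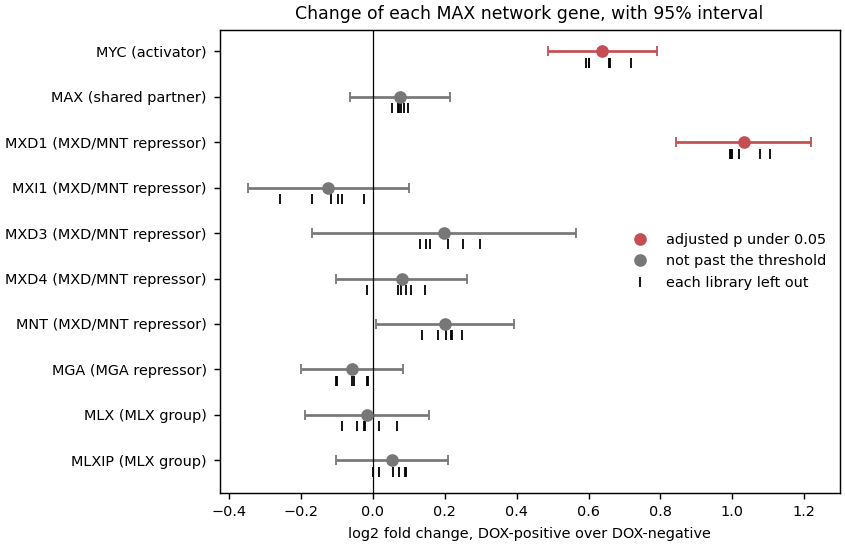
Log2 fold change of each member, DOX-positive over DOX-negative, with its 95% interval from the edgeR fit (n = 3 per group); black ticks give the value with each library left out in turn. MYC at 0.64 and MXD1 at 1.03 (red) lie clear of 0 with all of their ticks, and the other 8 members (grey) did not pass the adjusted threshold.

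To compare genes with each other, levels per length were taken from the deposited TPM, rescaled after removing 5 short noncoding RNAs, and the order rests on the authors' gene lengths. Without DOX, MAX stood highest at 86.3 ± 2.61 rescaled TPM (SD, n = 3), followed by MYC at 73.6 ± 5.14 and MLX at 68.4 ± 8.94. The ranges of MYC and MLX overlapped, so their order is not established. MGA at 31.8 and MXD4 at 31.2 did not differ beyond their spread, nor did MLXIP at 23.7 and MXI1 at 21.0. Below them, each apart from its neighbour, came MNT at 14.7, MXD1 at 11.4 and MXD3 at 4.25.

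With DOX the order of the levels changed, and MGA and MXD4, whose ranges overlapped in both groups, exchanged places. MYC moved from 2nd to 1st, with 116, 100.5 and 121 rescaled TPM, above the highest MAX library at 93.0. MXD1 moved from 9th to 7th, at 23.5, 23.4 and 21.4 rescaled TPM, where its range overlapped those of MLXIP above it and MXI1 below it. MAX was at 89.4 ± 3.83 and MLX at 66.3 ± 2.22 (SD, n = 3 each), each apart from its neighbours in the order. MXD3 remained last at 4.80 ± 0.321.

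These levels describe the balance of activator, partner and repressors within each library, where scaling cancels. The ratio of MYC to MAX was 0.863, 0.883 and 0.812 without DOX and 1.36, 1.12 and 1.30 with DOX. The ratio was below 1 in all 3 DOX-negative libraries and above 1 in all 3 DOX-positive libraries, but where it stands against 1 rests on the gene lengths behind the deposited TPM, which are not given in the sources used here. In CPM, with no length, it was 1.33, 1.36 and 1.25 without DOX and 2.10, 1.72 and 2.00 with DOX, with the same 1.48-fold change. The mean ratio went from 0.853 ± 0.0364 to 1.26 ± 0.126 (SD, n = 3 each), a change of 1.48-fold. Ratios are given as a description, with no test.

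The summed level of the 5 repressors MXD1, MXI1, MXD3, MXD4 and MNT was 85.1, 82.5 and 79.8 rescaled TPM without DOX and 97.7, 99.97 and 88.1 with DOX. On this scale the sum was higher in every DOX-positive library, at 1.16-fold. In CPM it was also higher, at 129, 123 and 124 against 160, 161 and 142, or 1.23-fold with groups apart. The direction turned in the deposited TPM, at 41.5, 54.1 and 29.7 against 34.8, 39.3 and 34.8, or 0.869-fold with overlapping groups. Divided by MYC, the sum was 1.12, 1.07 and 1.18 without DOX and 0.840, 0.995 and 0.730 with DOX. The groups did not overlap, and the mean ratio fell to 0.762 of its DOX-negative value, with DOX-positive replicate 2, the library with the least MYC of its group, closest to the others. Leaving out each library gave log2 changes of this ratio from -0.52 to -0.29. MLXIP over MLX, a ratio of the parallel branch, was 0.360, 0.328 and 0.356 without DOX and 0.369, 0.363 and 0.360 with DOX, with groups that overlap.

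Within the repressor sum the make-up changed more than the total. MXD1 held 14.8%, 13.4% and 13.1% of it without DOX and 24.0%, 23.4% and 24.3% with DOX. MXI1 held 26.2%, 24.3% and 25.8% without DOX and 18.4%, 22.4% and 18.3% with DOX. Both shifts kept the groups apart, and MXI1 over MXD1 went from 1.85 ± 0.105 to 0.826 ± 0.116 (SD, n = 3 each), below 1 in every DOX-positive library, a position that rests on the same lengths. Shares of 1 sum are tied to each other, so a larger share of MXD1 lowers the rest. In TPM, MXD4 held the largest share in every library, 37.8% ± 1.33 without DOX and 33.8% ± 2.57 with DOX, with overlapping groups. The TPM shares of MNT (17.9% and 17.5%) and MXD3 (5.17% and 5.05%) were close in both. The rank of MXD4 also rests on the lengths. In CPM, with no length, MXD1 held 31.4%, 30.4% and 31.5% with DOX, above MXD4 at 31.3%, 26.8% and 28.3%. The MXD4 share in CPM went from 33.7% to 28.8%, with groups apart.

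**Figure D3:**
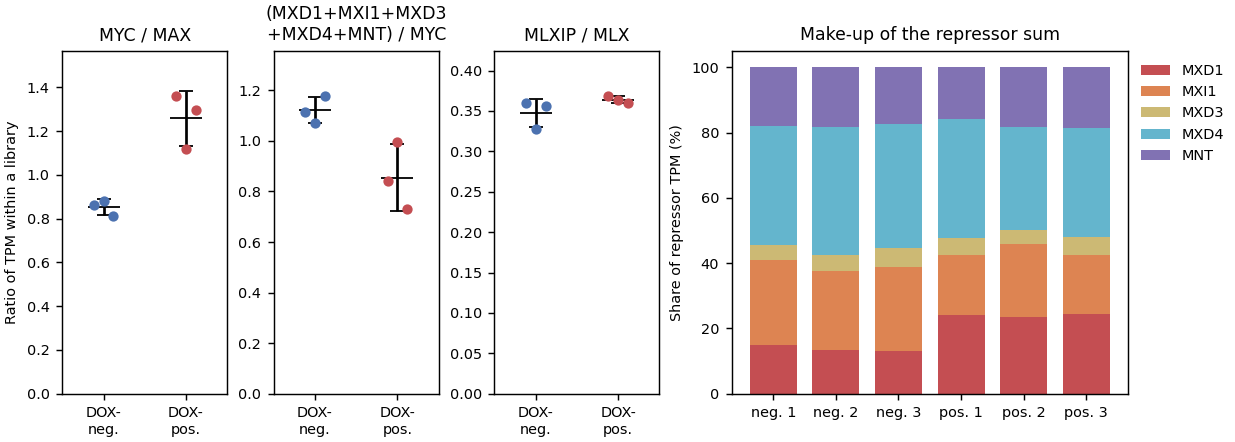
Left, ratios of deposited TPM within each library (points), with mean and SD (n = 3 per group), for MYC over MAX, the sum of the 5 repressors over MYC, and MLXIP over MLX. Right, the share in percent of each repressor in their summed TPM in each library, where MXD1 widens from 13.1-14.8% to 23.4-24.3%.

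Of the 3 remaining genes of the network 2 were tested and 0 passed, also by DESeq2 or at an unadjusted p under 0.05 by edgeR. MYCN, the neuronal relative of MYC, had 0 counts in every library. MYCL had between 56 and 88 counts and a log2 fold change of 0.14 (edgeR adjusted p 0.676), whose sign turned without DOX-positive replicate 2 and in the deposited TPM. MLXIPL, the liver relative of MLXIP known as ChREBP, had 99 to 150 counts and a log2 fold change of -0.063 (edgeR adjusted p 0.803).

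Proteins that MYC and MXD1 recruit were examined next. Of 11 coactivators and partners of MYC tested, 4 fell and 0 rose, as by DESeq2, and at an unadjusted p under 0.05 edgeR counted 6 lower and 0 higher. The falls were in TRRAP, the scaffold of histone acetyltransferase complexes (log2 change -0.46, SE 0.0757, edgeR adjusted p 1.05e-04), WDR5, a chromatin adaptor for MYC (-0.40, SE 0.0721, edgeR adjusted p 2.50e-04), HCFC1 (-0.27) and, named after its value was seen, the acetyltransferase KAT2A (-0.24). TRRAP, for example, went from 98.7 ± 9.22 to 71.9 ± 1.07 CPM and WDR5 from 93.1 ± 4.89 to 70.5 ± 3.28 CPM (SD, n = 3 each). Of 16 SIN3 complex genes, through which MXD1 represses, 5 fell and 0 rose, as by DESeq2, while at an unadjusted p under 0.05 edgeR counted 5 lower and 1 higher. The falls were in SAP130 (-0.36), ARID4B (-0.34), SUDS3 (-0.27) and, named after their values were seen, SIN3B (-0.24) and RBBP4 (-0.21). The median log2 fold change was -0.16 over the coactivators and -0.065 over the SIN3 genes, beside -0.0034 over all genes, and 13.7% of all genes were called lower. These lists and those below were chosen with earlier results of these data known, so such comparisons are a description. ARID4B shares exon sequence with RBM34 and GGPS1, and TRRAP with SMURF1 and a pseudogene, so their counts are less certain. The call of SUDS3 was lost without DOX-negative replicate 3 (adjusted p 0.0568), that of KAT2A without DOX-negative 2 or 3 or DOX-positive 1 or 2 (0.0568 to 0.128), that of SIN3B without DOX-negative 1 or 2 or DOX-positive 1 or 2 (0.0803 to 0.121) and that of RBBP4 without DOX-negative 2 or 3 or DOX-positive 2 (0.0523 to 0.0709). Without DOX-negative 2, DOX-negative 3 or DOX-positive 2, 3 SIN3 genes were called lower. In rescaled TPM 2 SIN3 genes were called lower, with ARID4B also lost (adjusted p 0.0623), and in the deposited TPM 0 genes of either list were called at either pseudocount.

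Of 9 PRC1.6 partners of MGA, 2 rose and 1 fell, beside 13.0% and 13.7% of all genes, and DESeq2 called 1 higher and 1 lower. RYBP rose by 0.33 (SE 0.0666, edgeR adjusted p 8.74e-04) and YAF2 by 0.30 (edgeR adjusted p 0.0456), both small homologous subunits that bind the RING proteins. Both signs turned in the deposited TPM. In rescaled TPM both were positive, RYBP at 0.30 (limma adjusted p 0.037) and YAF2 at 0.25 (limma adjusted p 0.203). CBX3, a reader of methylated histone H3, fell by 0.24 (edgeR adjusted p 0.0104), and its reads could be shared with 9 pseudogenes and with HNRNPA2B1. CBX3 was not called without DOX-negative replicate 1 (adjusted p 0.0675) or 3 (0.0545), and YAF2 passed in 4 of 16 alternative settings, and was lost without any library other than DOX-negative replicate 1 (adjusted p from 0.0524 to 0.245). The list median was 0.045.

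Genes that act on MYC itself were read against the 13.0% of all genes called higher and 13.7% called lower. Of 12 genes of MYC protein turnover, among them the ubiquitin ligases FBXW7, SKP2 and HUWE1 and the deubiquitinase USP28, 0 passed the threshold by edgeR or DESeq2, with log2 fold changes from -0.19 to 0.27 and 1 gene in each direction at an unadjusted p under 0.05. Without DOX-positive replicate 2, 1 of them was called lower. Of 10 genes tied to MYC transcription or mRNA, 2 fell and 0 rose, as by DESeq2, with 3 lower and 1 higher at an unadjusted p under 0.05 by edgeR and 1 called higher without DOX-negative replicate 2. IGF2BP3, which binds and stabilises mRNAs including that of MYC, went from 36.2 ± 4.29 to 25.5 ± 1.36 CPM (SD, n = 3 each) and fell by 0.51 in log2 units (SE 0.0975, edgeR adjusted p 4.87e-04), and it shares exon sequence with MALSU1 on the opposite strand. FUBP1, which binds a far upstream element of MYC, fell by 0.28 (SE 0.0659, edgeR adjusted p 0.00338). PVT1, the long noncoding RNA next to MYC, had 525, 586 and 580 counts without DOX and 647, 589 and 472 with DOX, with a log2 fold change of 0.045 (edgeR adjusted p 0.759) that turned negative in the deposited TPM. PVT1 was named after its value was seen.

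Of 17 genes known to be induced by MYC that were tested, out of 19 listed, 2 rose, 1 fell and 14 did not pass, as by DESeq2, with a list median of -0.0035. These shares lie near or below the 13.0% higher and 13.7% lower of all genes. By gene set enrichment of RNA-Seq from these cells, the study linked MUC1-C to regulation of a Hallmark set of MYC targets. That set was not tested here, and this short list does not stand for it. ODC1, the rate-limiting enzyme of polyamine synthesis and a classic E-box target, had 2784, 3151 and 3398 counts without DOX and 7901, 5581 and 5084 with DOX. Its mean went from 161 ± 7.91 to 326 ± 29.8 CPM (SD, n = 3 each), or 1.02 in log2 units (SE 0.0702, edgeR adjusted p 6.04e-10). SLC7A5, an amino acid transporter, rose by 0.27 (SE 0.0652, edgeR adjusted p 0.00413), with a negative sign in the deposited TPM, and CAD, an enzyme of pyrimidine synthesis, fell by 0.24 (edgeR adjusted p 0.0135), a call lost without DOX-negative replicate 2 (adjusted p 0.0764). SLC7A5 has pseudogenes that could share its reads. HK2, which MYC also induces, rose but was counted with the MLXIP list below. The counts of the MYC-induced list therefore depend on how genes were listed.

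Of 6 genes known to be repressed by MYC, 3 rose, 1 fell and 2 did not pass, with a list median of 0.56. DESeq2 called 3 higher and 0 lower, and 13.0% of all genes were called higher and 13.7% lower. GADD45A, a stress-response gene, went from 21.8 ± 1.26 to 47.9 ± 5.12 CPM (SD, n = 3 each), or 1.13 in log2 units (SE 0.0955, edgeR adjusted p 1.28e-08). CDKN1A, which codes for the cell cycle inhibitor p21, went from 60.0 ± 5.87 to 131 ± 14.2 CPM (SD, n = 3 each), also at 1.13 (SE 0.0849, edgeR adjusted p 2.28e-09). NDRG1 rose by 0.79 (SE 0.0825, edgeR adjusted p 2.72e-07). THBS1, an angiogenesis inhibitor, fell by 0.19 (edgeR adjusted p 0.0450), but its groups overlapped, it passed in 5 of 16 alternative settings, and it was lost without any library other than DOX-positive replicate 2 (adjusted p from 0.0503 to 0.207). CDKN1A and GADD45A are also known targets of p53, and NDRG1 of hypoxia signalling.

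Of 5 genes known to be induced by MLXIP with MLX, 2 rose and 0 fell, as by DESeq2 and at an unadjusted p under 0.05, beside 13.0% of all genes called higher; neither MLX nor MLXIP passed. TXNIP, the glucose-responsive inhibitor of thioredoxin, had 51, 56 and 51 counts without DOX and 89, 105 and 70 with DOX, which was 0.77 in log2 units (SE 0.212, edgeR adjusted p 0.00930). HK2, a hexokinase that MYC also induces, went from 16.8 ± 0.639 to 28.1 ± 0.592 CPM (SD, n = 3 each), or 0.74 in log2 units (SE 0.0964, edgeR adjusted p 5.59e-06). By qRT-PCR and immunoblot, the study reported the opposite direction for glycolytic enzymes including HK2 after MUC1 silencing in DU-145-DR cells. The cause of this difference was not tested. By gene set enrichment of RNA-Seq from these cells, the study also linked MUC1-C to regulation of a Reactome glycolysis set. That set was not tested here, and HK2 alone does not stand for it. ARRDC4, a relative of TXNIP named after its value was seen, had 45, 62 and 62 counts without DOX and 39, 54 and 27 with DOX, which was -0.46 in log2 units (SE 0.262, edgeR adjusted p 0.203). The list median was 0.066.

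**Figure D4:**
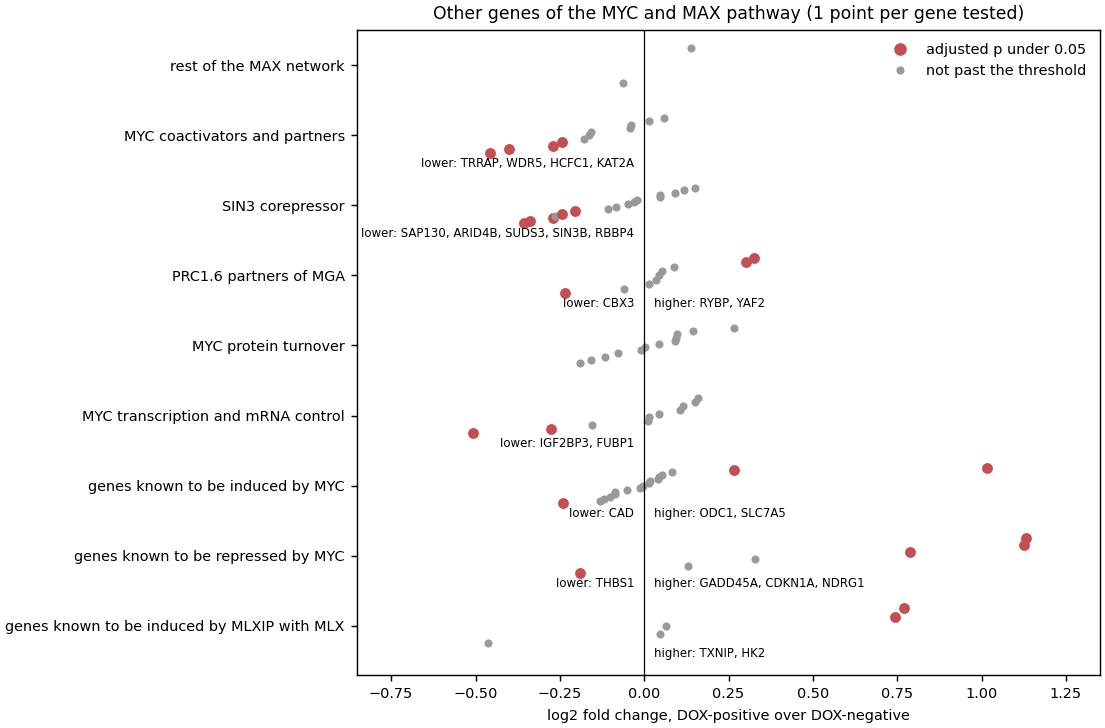
Log2 fold change, DOX-positive over DOX-negative, of every tested gene in 9 lists around the network (1 point per gene, n = 3 libraries per group); red points passed an edgeR adjusted p under 0.05 and are named under their row from the largest change. The coactivator and SIN3 rows hold red points on the lower side only, and ODC1, GADD45A and CDKN1A lie beyond 1 on the higher side.

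The genes whose pattern across the 6 libraries was most like that of MYC were CYLD, PKP3, ZBTB43 and CLK1, with Pearson's r between 0.994 and 0.996 on the log2 CPM scale. They had the highest r among 666 genes with a log2 fold change within 0.2 of that of MYC. Those genes also had an average log2 CPM of at least 1. Both the direction of the picked genes and their likeness to MYC are therefore set by the choice. CYLD, a deubiquitinase, had 73.3, 71.95 and 66.3 CPM without DOX and 111.5, 98.1 and 109 CPM with DOX. Like MYC, it was lowest within its DOX-positive group in replicate 2 and lowest within its DOX-negative group in replicate 3. A choice by r favours such a match, so it is given as a description.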

How the data were processed

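Total RNA from triplicate cultures was made into TruSeq Stranded mRNA libraries by the authors, whose processing notes name STAR, DESeq2 and GRCh38; aligner settings, strand setting and annotation are not given in the sources used here. The authors deposited whole-number counts for 28008 genes and TPM values for 25546 genes. In the deposited TPM, RPPH1, RN7SK and the RN7SL RNAs 1 to 3, all short and noncoding, took up 34.4% to 64.4% of a library. That share sets every other gene's TPM, so TPM was rescaled without them for levels. Whether the cultures were separate is stated only as triplicates, so p-values measure the spread between these libraries.

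Counts were filtered with filterByExpr (14292 genes), scaled by TMM (0.986 to 1.03) and tested two-sided with glmQLFTest in edgeR 4.0.16 (R 4.3.3), group as the only term, with Benjamini-Hochberg adjustment over all genes. Counting error alone sets the floor of 3 counts. Libraries of the same group were further apart than counting noise (chi-square per degree of freedom 3.65 to 19.0), so each was kept as 1 replicate. Alternatives were DESeq2 1.42.0, RLE or total-count scaling, other filters, a replicate block, thinned counts, limma 3.58.1 on log2 TPM with a pseudocount, and leaving out each library.

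The members and lists were chosen with earlier results of these data known. Named genes were all members and MUC1, from each list up to 3 genes called in each direction and genes under 3 counts, and the 4 genes most like MYC. Members' shared exons were read from GENCODE 29. The result of 1 marker list is not reported here.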

Additional observations from a re-analysis of the deposited data

How the results depend on the processing

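MYC and MXD1 were called higher in 14 of 16 alternatives. In the deposited TPM with a pseudocount of 1 or 0.1, MYC had log2 changes of 0.23 and 0.24 and MXD1 of 0.55 and 0.63, 0 members were called higher, 34 and 49 genes were called higher and 484 and 468 lower. Signs turned there for MAX (-0.31, -0.32), MXD3 (-0.13, -0.18), MXD4 (-0.30, -0.32), MNT (-0.17, -0.19), MLXIP (-0.31, -0.34), RYBP (-0.067, -0.068), YAF2 (-0.067, -0.080), SLC7A5 (-0.13, -0.13), MYCL (-0.13, -0.24), PVT1 (-0.33, -0.35) and SNRNP27 (-0.16, -0.16); all genes shifted by -0.34 and -0.39 there. Rescaled TPM called 963 genes higher. The members whose signs turned in the deposited TPM were positive in rescaled TPM: MAX (0.051), MXD3 (0.14), MXD4 (0.044), MNT (0.16) and MLXIP (0.029). Leaving out single libraries gave -0.017 to 0.14 for MXD4, -0.087 to 0.068 for MLX, -0.00020 to 0.094 for MLXIP and -0.013 to 0.27 for MYCL. The cause of these turns was not tested.

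Replicate numbers did not pair the libraries: deviations of same-numbered libraries correlated at -0.019, -0.095 and -0.027. With a replicate block MYC had 0.63 and MXD1 1.03, 2 members were called, and 3158 genes were called against 3816 without it; KAT2A (adjusted p 0.0667), SIN3B (0.0764) and RBBP4 (0.0533) were not called with it, leaving 3 SIN3 genes. Of the balance ratios, 21 of 21 alternatives stayed within the spread between libraries. There were 7 for each ratio, mostly with 1 library left out. Such alternatives share most libraries with the main value, so staying within the spread says little. The repressor sum, which turned in the deposited TPM at 0.869-fold, was not among the ratios counted. List counts moved by over 1.5 times in 55 of 384 alternatives. With 3 libraries a group, changes of MXD3, at 80 to 136 counts, are the least precise of the members.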

Other observations

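EIF4A1, a translation initiation factor that every cell uses and that was listed among MYC-induced genes, is listed at 0 in every library in both the counts and the deposited TPM. In GENCODE 29 its exons are shared with the readthrough gene SENP3-EIF4A1, which had between 2 and 8 counts, and 13 pseudogenes carry its name. No level of EIF4A1 can be read from these files.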
